A study of Mus musculus with 7 samples.

Results

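Mouse brain lacking Pla2g2e, the gene of a secreted phospholipase A2, was compared 3 days after a stroke with sham-operated wild type brain, over 3 knockout arrays and 1 sham array of the 7 arrays in the series. A gene was counted when its value on each of the 3 knockout arrays lay on the same side of the sham value by over 1 on the log2 scale, so by over 1 doubling. Of 23187 features measured, 197 were higher by this rule (0.85%) and 151 were lower (0.651%), together 348 (1.5%). These counts are descriptive: the sham group is a single array, and the same 4 values decide which genes are counted.

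Male C57BL/6N mice were used throughout. The knockout mice carried Pla2g2e -/- and had 60 min of transient middle cerebral artery occlusion, MCAO, in which the main artery of a hemisphere is blocked and then reopened. Their brains were taken on day 3. The sham mouse was wild type and was operated on without occlusion; the 3 remaining arrays were wild type mice on day 3 after the same occlusion and are used here for side-by-side values, the filter on dim probes, the check of array positions and the wider limma fits. The labels give neither the hemisphere or piece of brain used nor the part of Pla2g2e that was deleted, and they do not say that the replicates were separate animals, so any p-value measures the spread between these RNA samples alone. Genotype, occlusion and slide all differ between the groups, since the knockout arrays lay on 1 slide and the sham array on another, and these cannot be told apart.

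Values are the processed intensity of each probe as log2, minus the 75th percentile of that array, so 0 marks a bright gene and -9 a gene near background. Of 43020 spots per array other than controls, 31177 to 32863 were well above background on the knockout arrays and 33116 on the sham array, and none was saturated. A brain marker was bright on all 4: Syt1, a synaptic vesicle calcium sensor, read 2.69, 4.02 and 2.27 on knockout replicates 1, 2 and 3 and 3.89 on sham. The arrays labelled sham and wild type day 3 replicate 1 went against their labels. Spp1, osteopontin, which phagocytes make after brain injury, read 5.33 on the array labelled sham, within the knockout range of 4.84 to 5.65, but -2.66 on the array labelled wild type day 3 replicate 1. Lgals3, galectin-3, another phagocyte gene, read 5.83 and -3.17 on these 2 arrays, against 5.77 to 6.18 in the knockout. Whether the labels of these 2 arrays were exchanged was not tested. The labels were kept as given, and each difference below is from 1 array that carries injury genes at the knockout level, so it may not be a difference from uninjured brain.

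A brain region that loses its blood supply loses neurons within hours, and over the next days neutrophils and monocytes enter from the blood, vessels leak and can bleed, and astrocytes, fibroblasts and vessel cells begin to lay down matrix. Blood left in the tissue brings the RNA of reticulocytes, the young red blood cells, which still hold globin messages. Secreted phospholipases A2 release fatty acids and lysophospholipids from phospholipids. In a bulk sample, fewer cells of a type and less RNA per cell cannot be told apart.

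Pla2g2e itself had 2 probes. The brighter read -4.44, -5.83 and -4.97 on the knockout arrays and -4.69 on sham, a log2 difference of -0.39 ± 0.61 (SE), so the knockout values lay on both sides of sham. The dimmer read -7.94, -8.44 and -7.84 in the knockout, where no array had it well above background, and -6.83 on sham, where it was well above background. With the brighter probe, wild type day 3 replicates 2 and 3 read -3.68 and -3.36, above every knockout array. With the dimmer they read -6.72 and -6.50, also above every knockout array and well above background. Replicate 1 of that group went the other way. It read -6.89 with the brighter probe, below every knockout array. With the dimmer it was also below every knockout array, and not well above background. Since the deleted part is not given, neither probe checks the genotype.

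Red blood cell genes were the group with the largest list median, and they had counted members in 1 direction only. Of 7 measured, 6 were higher on all 3 knockout arrays, and the list median of the log2 difference was 3.25, against 0.00 over all features. Hba-a2, an alpha globin, read 4.43, 2.57 and 2.97 on knockout replicates 1, 2 and 3 and 0.08 on sham. Hba-a1, the other adult alpha globin, read 2.13, 0.10, 0.65 and -2.40 on the same arrays. Replicate 1 was the highest knockout array for both genes. That no knockout value reaches sham follows from the rule for every counted gene. The differences were 3.25 ± 0.83 (SE) for Hba-a2 and 3.36 ± 0.89 for Hba-a1, or 9.49-fold and 10.2-fold. Hbb-bt, an adult beta globin, read 1.29, -0.71 and -0.27 against -3.11, and the probes named Hbb-b1 and Hbb-b2 differed by 3.62 ± 0.94 and 3.27 ± 0.94. The globin copies are near-identical, so their probes are not independent measurements. Alas2, which makes the first step of heme synthesis in red cell precursors, read -3.26, -5.04 and -4.71, while on sham, at -7.38, it was not well above background, which puts it at least 8.22-fold higher in the knockout. Slc4a1, the red cell anion exchanger, was the exception, at -5.77, -6.33 and -6.12 against -5.82. All 7 genes read lowest on knockout replicate 2 among the knockout arrays, and the share of all features that did so was not counted. On wild type day 3 replicates 2 and 3, Hba-a1 read 0.31 and 0.24 and Hbb-bt read -0.40 and -0.62, values within the knockout range. Replicate 1 of that group read -2.40 and -2.58, near the sham values.

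Because the globin genes and Alas2 lay higher together, the 120 bases before the annotated start of 3 of them are shown, as RefSeq has them on GRCm38.p6. The table used had entries for 4 of the 6 genes. Capitals mark 3 short motifs known from globin promoters, each searched on both strands. They are CACCC, a site of Kruppel-like factors, then the CCAAT box and then TATAA, the core of the TATA box. Where motifs touch or overlap, the capitals run together. Hba-a1 lies at chr11:32283552-32283671 on the plus strand, Hbb-bt at chr7:103813924-103814043 on the minus strand and Alas2 at chrX:150547297-150547416 on the plus strand.
Hba-a1: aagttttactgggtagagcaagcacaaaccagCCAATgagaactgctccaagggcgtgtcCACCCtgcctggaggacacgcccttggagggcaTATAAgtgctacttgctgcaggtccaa
Hbb-bt: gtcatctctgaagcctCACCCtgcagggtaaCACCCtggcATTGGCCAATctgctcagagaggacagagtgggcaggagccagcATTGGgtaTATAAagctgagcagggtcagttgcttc
Alas2: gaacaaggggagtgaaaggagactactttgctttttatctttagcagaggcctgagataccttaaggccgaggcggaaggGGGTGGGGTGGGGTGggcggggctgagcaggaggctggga
CACCC, on either strand, is in all 3 windows. The CCAAT box is in the 2 globin windows, and so is the TATA core. In the same window of 32851 promoters, CACCC was found in 31.7%, the CCAAT box in 21.3% and the TATA core in 11.8%. A match is a string of letters in this window and nothing more.

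Genes that handle free hemoglobin, heme and iron differed less. Of 16 measured, none was counted in either direction, and 13 lay higher than sham on all 3 knockout arrays, though not by over 1 on each. Over all features, 6624 of 23187 lay higher than sham on all 3. On both replicates 1 and 3, 6 of the 16 lay over 1 higher, and on replicate 2, 0 did. Over all features 925 and 411 did so. The list median was 0.61. Hmox1, which breaks heme down, read 5.40, 3.13 and 5.50 against 3.83, with replicate 2 below sham. Cd163, the macrophage receptor that takes up hemoglobin, read -2.28, -4.43 and -2.51 against -5.26, a difference of 2.19 ± 0.99 (SE) that missed the rule through replicate 2.

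Neutrophil genes came next. Of 15 measured, 7 were higher on all 3 knockout arrays and 1, Padi4, was lower, and the list median was 1.44. S100a8 and S100a9, the calprotectin subunits that fill the neutrophil cytoplasm, read 3.41, 1.95 and 2.89 for S100a8 against 0.43 on sham, and 4.17, 3.19 and 3.13 for S100a9 against 1.53. The differences were 2.32 ± 0.64 and 1.97 ± 0.52 (SE), or 5.01-fold and 3.91-fold. Cxcr2, the receptor that draws neutrophils to chemokines, read -0.80, -2.83 and -1.96 against -3.998. Il1r2, the decoy receptor of interleukin-1, read 1.06, -1.20 and 0.06 against -2.59. For both receptors replicate 2 was nearest to sham and replicate 1 farthest. Mmp9, a gelatinase stored in neutrophil granules, differed by 2.05 ± 0.39, Ltf, lactoferrin, by 1.44 ± 0.55, and Ngp, neutrophilic granule protein, was at least 2.85-fold higher. The enzyme genes Mpo and Elane of immature neutrophils differed by 0.14 ± 0.42 and 0.35 ± 0.41 and were not counted. Stfa1 and Stfa2, stefins found in mouse neutrophils and not on the list, were also higher; Stfa2 read -1.31, -3.82 and -2.78 against -5.16.

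**Figure D1:**
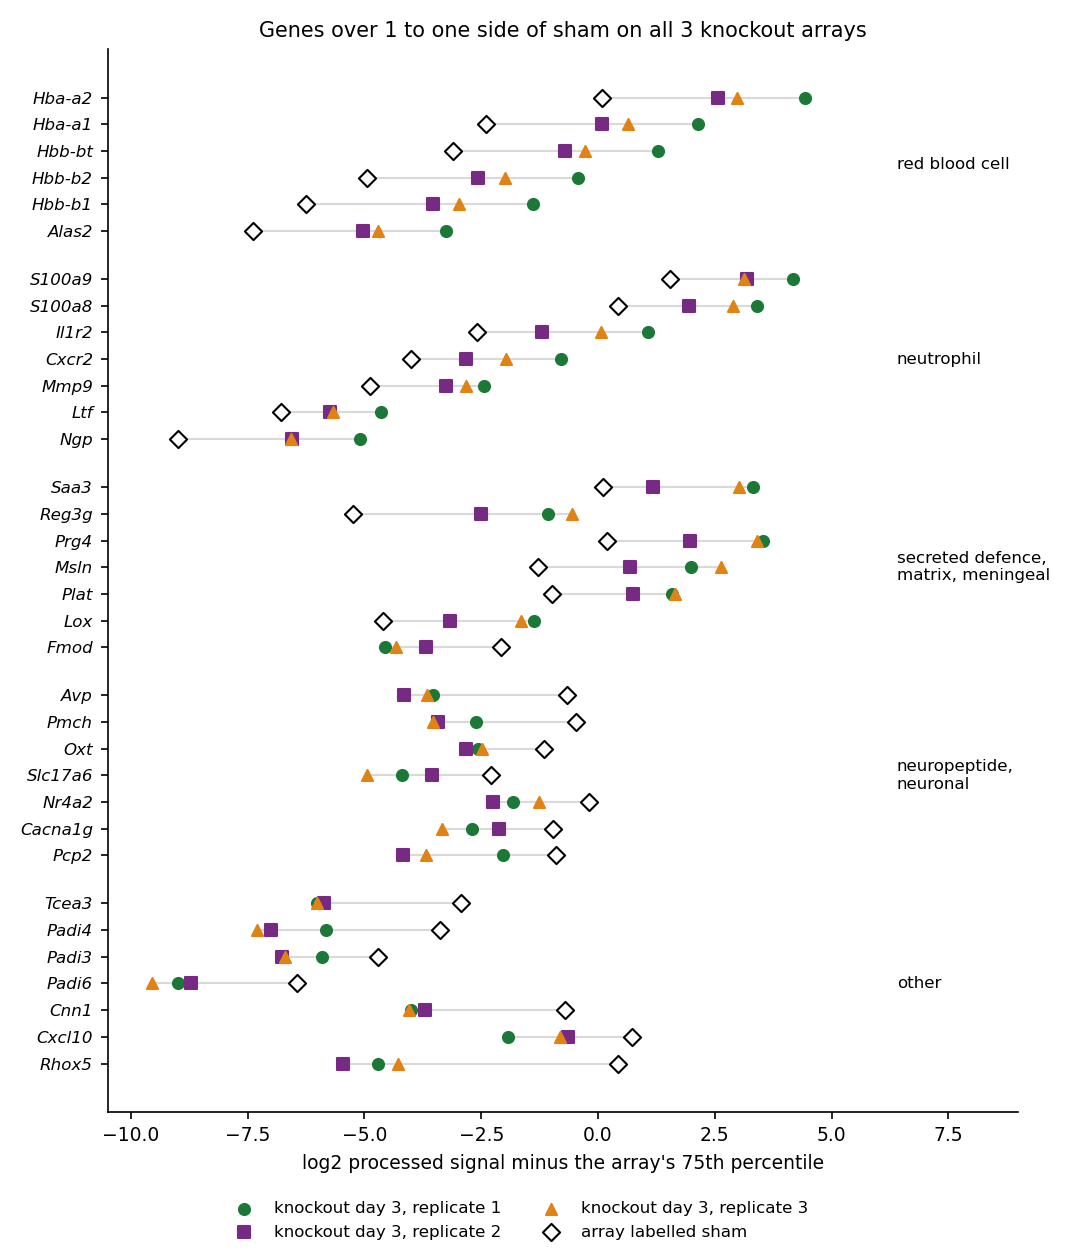
Log2 processed signal minus the 75th percentile of its array (x axis) for 34 of the counted genes (y axis), with 1 symbol for each of the 3 knockout day 3 arrays and an open diamond for the array labelled sham. The rule itself keeps every knockout symbol off the diamond. In the red blood cell group replicate 1 lies farthest from sham and replicate 2 nearest.

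Markers of other blood and immune cells did not show this pattern. The phagocyte list of injured brain had a median of -0.03 over 28 genes and no counted gene, with Spp1 and Lgals3 as above. Monocyte and macrophage genes had a median of 0.29 over 14, interferon response genes 0.02 over 23 and complement genes 0.19 over 14, with no counted gene in any of the 3 lists. Without replicate 3 the interferon median was -0.14 and the complement median 0.0069, so neither has a settled direction. These small differences are from an array that itself carries injury genes: on wild type day 3 replicate 1 the medians against it were -4.51 for phagocytes, -3.96 for monocytes and macrophages and -3.14 for complement. Among 12 lymphocyte genes 1 was counted: Gzmb, the killer cell protease, read -8.85, -7.29 and -8.003 against -6.27. Ccr7, a receptor that guides lymphocytes and dendritic cells to lymph nodes, was lower as well, at -4.61, -4.18 and -3.35 against -2.25.

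Of 20 cytokine and chemokine genes, 1 was higher and 1 lower. Cxcl2, a neutrophil attractant, read -5.45, -8.20 and -4.68 against -9.40, dim on every array and at least 2.78-fold higher. Cxcl10, an interferon-induced attractant of T cells, read -1.93, -0.63 and -0.81 against 0.74, a difference of -1.86 ± 0.61 (SE). Its knockout values lay below the array labelled sham, as did those of wild type day 3 replicates 1, 2 and 3, at -4.62, -2.02 and -1.29. Cxcl1 and Il6 read 0.31, -2.26 and 0.14 for Cxcl1 against -2.36, and 0.27, -1.27 and 0.65 for Il6 against -1.30. In both, replicates 1 and 3 lay well above sham and replicate 2 lay at the sham level.

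Some further genes that were higher code for secreted or connective tissue proteins; most were named after their values were seen and stand for no tested group. Reg3g, a secreted lectin that binds bacteria, read -1.08, -2.50 and -0.55 against -5.25, and Saa3, an acute phase protein, read 3.33, 1.18 and 3.01 against 0.10. Wfdc21, a secreted protein of the WAP inhibitor family, read -0.84, -3.98 and -2.01 against -5.65. In each, replicate 2 was the knockout array nearest to sham. Prg4, lubricin, which coats joints and serous surfaces, read 3.54, 1.97 and 3.40 against 0.18, and Msln, mesothelin, a surface protein of lining cells, read 1.99, 0.68 and 2.64 against -1.29. Plat, tissue plasminogen activator, which starts the breakdown of clots, read 1.58, 0.76 and 1.65 against -0.98, a difference of 2.31 ± 0.46 (SE) or 4.97-fold. The transcription factor Prrx1 and the receptor Tgfbr1, both active in connective tissue cells, differed by 2.04 ± 0.30 and 1.99 ± 0.25. Their 3 knockout values agreed closely, -1.78, -1.28 and -1.74 for Prrx1 and 0.54, 0.38 and 0.74 for Tgfbr1. Smoc2, Sfrp4, Foxd1 and Crabp1 were higher too, by 1.76, 1.502, 1.42 and 2.66.

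In the list of collagens and matrix genes, 1 of 26 was higher and 1 lower, and the median was 0.74. Lox, which crosslinks collagen, read -1.37, -3.16 and -1.65 against -4.61. Fmod, fibromodulin, which binds collagen fibrils, read -4.57, -3.69 and -4.32 against -2.07. Most other members lay a little above sham: Col3a1 read 3.10, 2.41 and 3.11 against 1.92. On all 3 arrays 18 of 26 lay above sham, beside 6624 of 23187 over all features. The 16 endothelial genes had a median of 0.87 and none was counted. Of them 14 lay above sham on all 3 arrays, beside the same 6624 of 23187 features. Among 20 pericyte, smooth muscle and fibroblast genes the median was 0.09, and 1 was lower: Cnn1, calponin 1 of smooth muscle, read between -4.04 and -3.70 on the 3 knockout arrays against -0.71. Its knockout spread was small (SD 0.18, n = 3) and the difference was -3.20 ± 0.25 (SE), or 9.20-fold. Replicates 1, 2 and 3 of wild type day 3 had Cnn1 at -1.27, -2.43 and -2.63, between the knockout arrays and sham.

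Avp, vasopressin, read -3.53, -4.16 and -3.66 against -0.66, and Oxt, oxytocin, made by neighbouring cells of the hypothalamus, read -2.56, -2.82 and -2.48 against -1.15. Pmch, melanin-concentrating hormone of the lateral hypothalamus, read -2.61, -3.42 and -3.53 against -0.46. The knockout values of these 3 genes lay close together. Their differences from sham were -3.12 ± 0.34, -1.47 ± 0.25 and -2.72 ± 0.46 (SE). Of 15 hypothalamic neuropeptide genes these 3 were counted, and Pomc, at -1.23, -1.29 and -1.29 against -1.25, and Hcrt, with a difference of -0.01, lay at the sham level. On wild type day 3 replicates 1, 2 and 3 Avp read 0.53, -4.85 and -1.67, so this gene varied widely between arrays of 1 group.

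Single genes known from particular brain regions were lower as well, though none of 18 general neuron genes, 18 striatal or 14 interneuron genes was counted. Slc17a6, the glutamate transporter of thalamic and deep neurons, read -4.20, -3.56 and -4.95 against -2.30. Of 18 cortical neuron genes 3 were lower, Neurod6, Cplx3 and Nr4a2, with differences of -1.78, -1.39 and -1.57; Nr4a2, a nuclear receptor that activity induces, read -1.81, -2.24 and -1.27 against -0.20. Eomes, a factor of olfactory bulb projection neurons, read -7.57, -6.55 and -6.88 against -4.30, while Cdhr1 and Sp8 of the same bulb list were higher, by 1.53 ± 0.41 and 1.47 ± 0.36. Without spots at the array edge another probe gave Sp8 a difference of -1.06. Pcp2, a Purkinje cell gene, read -2.04, -4.17 and -3.68 against -0.89, and Cbln1, a cerebellar granule cell synapse protein, differed by -2.38 ± 0.62. Cacna1g, a T-type calcium channel of thalamic neurons, read -2.69, -2.12 and -3.34 against -0.96. Nptx1, a neuronal pentraxin, was also lower, at -8.06, -6.62 and -6.76 against -5.41. Ttr, the thyroid hormone carrier made by choroid plexus, read -1.49, -3.16 and -2.73 against -0.21, and it was the single counted gene of 15 on its list. On wild type day 3 replicates 1, 2 and 3 Ttr read -2.72, -5.51 and 1.37, a wider range than the gap between knockout and sham. The ependymal list had 1 counted gene of 18, Dnah5, a motor of cilia, with a difference of -1.57 and dim on every array.

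The peptidylarginine deiminases, which turn arginine in proteins into citrulline, were lower in 3 of 5 members. Padi4, the deiminase of neutrophils, read -5.82, -7.01 and -7.31 against -3.39 with 1 probe and -6.51, -7.04 and -7.12 against -5.10 with the other. Padi3, known from skin and hair follicle, read -5.92, -6.76 and -6.71 against -4.71. Padi6, an oocyte gene, was above background on sham but on none of the knockout arrays and was at least 1.93-fold lower. Padi1 and Padi2 differed by 0.15 and -0.75. These genes lie on chromosome 4 near Pla2g2e: on mm9, the build of the probe positions, the brighter Padi4 probe is at chr4:140301675.0-140301734.0, 1.86 Mb away. Of 381 features within 10 Mb of Pla2g2e, 4 were higher and 7 lower (2.89%), against 1.48% of the 22806 others. Tcea3, a transcription elongation factor 2.63 Mb away, read -6.02, -5.86 and -6.02 against -2.93, the smallest knockout spread among the lower genes named here (SD 0.09, n = 3). On the wild type day 3 replicates 2 and 3 Tcea3 read -2.93 and -3.01 and Padi4 -2.69 and -3.55, so these lay near the sham array. Replicate 1 of wild type day 3 did not: it read -4.50 for Tcea3, between the groups, and -7.76 for Padi3, below every knockout array. The Padi4 probes differed there. The brighter read -8.58, below every knockout array but not well above background, and the other read -6.36, above every knockout array. Padi6 read -4.95 on that array, above sham at -6.44.

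Several counted genes belong to no group above. Rhox5, an X-linked homeobox gene of the reproductive tract, read -4.71, -5.45 and -4.29 against 0.42, the widest gap among the lower genes that were well above background on all 4 arrays; the wild type day 3 arrays read -6.44, -2.50 and -4.60, so the high value was that of the array labelled sham. H2-Q1, a nonclassical MHC gene, read -6.57, -6.66 and -6.01 against -3.51, and Myoc, myocilin, read -6.30, -4.89 and -5.07 against -2.72. Rn18s, 18S ribosomal RNA, was higher by 1.16 ± 0.26 (SE), at 6.95, 6.62 and 6.59 against 5.56.

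The place of a spot on the array went with being counted. The 3 areas below were chosen after the data were seen, so their shares are descriptive and partly built in. Of 470 features in the last 2 columns, 84 and 85, 48 were higher (10.2%) and 0 lower. In a small block of columns 24 to 26 in the last rows, 6 of 25 were higher and 1 lower. In a band of rows across columns 20 to 83, 51 of 1823 were higher (2.80%) and 26 lower (1.43%), and 49 and 22 of them had a mean log2 value below -5. Elsewhere 92 of 20869 were higher (0.441%) and 124 lower (0.594%). On the array labelled sham, 15.1% of spots in columns 84 and 85 lay over 1 below the median of the other arrays, against 3.13% elsewhere, and on the other 5 arrays, replicate 1 of wild type day 3 left aside, the share in those columns was 1.43% to 5.05%. Several of the widest differences came from these areas. Zfp652, a zinc finger repressor, read -1.59, -1.72 and -1.30 against -9.38, and Dok2, an adaptor protein of blood cells, read 0.31, -0.58 and -0.10 against -5.47. Ang4, Raver1, Prrx2, Prok2, Fads6, Chp2, Phax, Cnot9, BC002059, Lrrc14b and Grhl3 also lay there. With another probe of the same gene outside columns 84 and 85, the difference of Fads6 was -0.27, where it had been 3.09. None of the globin genes lay in these areas, nor did Alas2, though Hba-a2, at row 480 and column 19, lay right beside the band. Ngp, Saa3, Ltf, Ttr, Dnah5, Adcy1 and Serpinb11 lay in the band, and Cbln1 lay in the block. Further named genes had their spot within 10 rows or 5 columns of an array edge. These include Hbb-bt, Il1r2, Mmp9, Plat, Prg4, Prrx1, Tgfbr1, Slc17a6, Sp8, Ccr7 and Rn18s. The brighter Pla2g2e probe, Glud1 and Rnase2a, which were not counted, lay there too. Without edge spots 122 genes in all were higher and 142 lower.

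**Figure D2:**
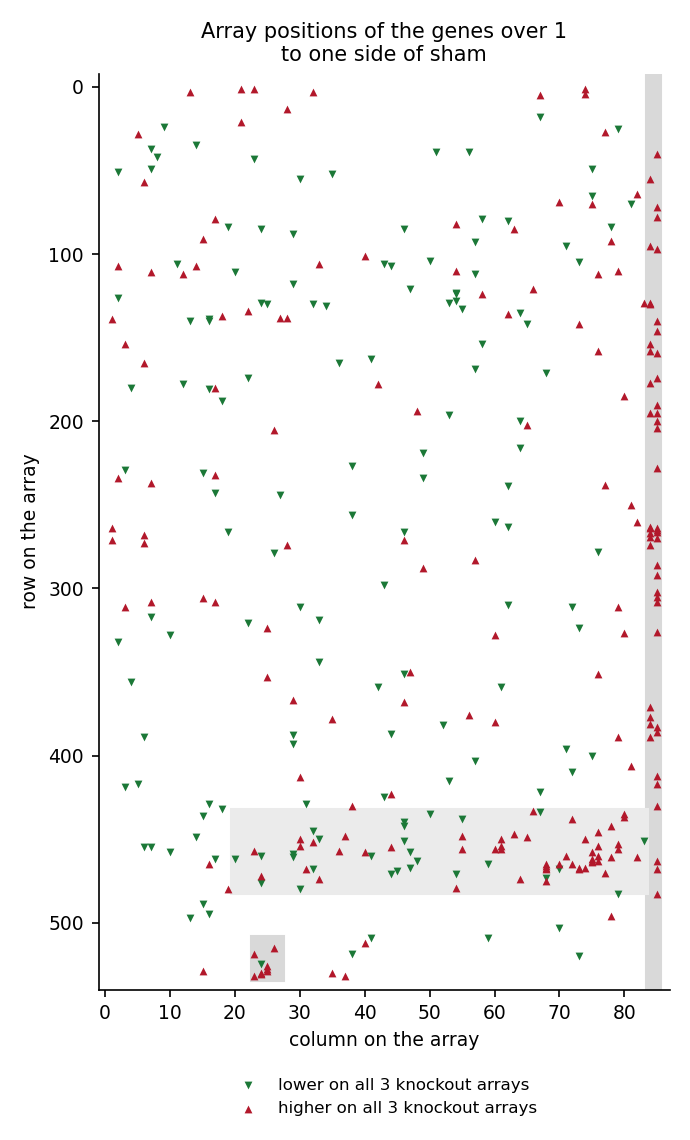
Row (y axis) and column (x axis) on the array of the spots of the 348 counted genes, as triangles that point up where the gene was higher on the 3 knockout arrays and down where it was lower. Grey marks the 3 areas named in the text; columns 84 and 85 hold 48 higher genes and no lower one.

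Weak signal went with being counted as well. Of 2840 features whose mean log2 value was below -6, 87 were higher and 86 lower (3.06% and 3.03%), while of 8227 with a mean of 0 and above, 31 were higher (0.377%) and 0 lower. Of the 197 higher genes 98 were well above background on all 4 arrays, and another 98 had no probe above background on sham. Of the 151 lower genes 70 were above background on all 4, and 29 had no probe above background on any knockout array. With another background correction, normexp, 70 genes were higher and 22 lower, so 76.1% of the counted genes were higher, against 56.6% with the processed signal, and the median over all features moved to 0.108. At the threshold itself, Ltbp2, Serpinb11 and Cxcl17 were just inside it on the higher side, with a smallest difference of 1.00, 1.01 and 1.01, and Tll1, Krt19 and Mrc1 just outside, with 0.998, 0.997 and 0.988. On the lower side Mid1, Adcy1 and Tmem255b were inside with 1.01, 1.01 and 1.02, and Lipn, Cpne9 and Il4i1 outside with 0.996, 0.994 and 0.991.

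No gene passed a test across all features with the 4 arrays. The wider fits given below did call genes. Each gene they called higher had its spot in the small block, in columns 84 and 85 or in row 1 of the array. With limma on the 4 arrays, 0 of 23187 features had an adjusted p under 0.05, and the smallest was 0.170; 746 (3.22%) had an unadjusted p under 0.05, of which 361 were higher (1.56%) and 385 lower (1.66%). The adjusted p of the counted genes ran from 0.170 to 0.851. A fit of all 7 arrays called 3 genes higher and 0 lower, Zfp652, Cnot9 and BC002059. A fit of 6 arrays, leaving out replicate 1 of wild type day 3, called 6 higher and 2 lower; of these, Tcea3 had an adjusted p of 0.0428 and was the lower gene with a name. With 1 array against 3, an exact permutation test of a single gene, one-sided, cannot go below p = 0.25, so none was run.

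The 3 knockout arrays differed widely among themselves. The range over the 3 had a median of 0.48 over all features and was over 1 in 5023 (21.7%) and over 2 in 1351 (5.83%). Replicate 2 stood apart. Its log2 values correlated with those of the array labelled sham at r = 0.991 across genes, which are not independent replicates, and the SD of the differences was 0.47. For replicates 1 and 3 this SD against sham was 0.80 and 0.89, and between replicates 1 and 3 it was 0.57. Against replicates 1 and 3, replicate 2 had an SD of 0.75 and 0.85. Alone against sham, replicate 1 had 1423 genes over 1 higher (6.14%) and 2413 lower (10.4%), replicate 3 had 1462 (6.31%) and 2690 (11.6%), and replicate 2 had 411 (1.77%) and 451 (1.95%). Replicate 2 lay over 1 above both other knockout arrays in 1449 genes, and in 1325 of them (91.4%) the array labelled sham lay within 1 of it. It lay below both in 676, with sham within 1 in 577 (85.4%). Replicate 1 lay above and below both others in 238 and 313 genes, and replicate 3 in 263 and 599. Replicate 2 therefore limits the count: without it, 925 genes were over 1 higher and 1684 lower, against 235 and 209 without replicate 1 and 226 and 229 without replicate 3. Among the counted genes replicate 2 was the knockout array nearest to sham in 113 of 197 higher and 83 of 151 lower. The share of all features in which it was nearest was not counted.

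**Figure D3:**
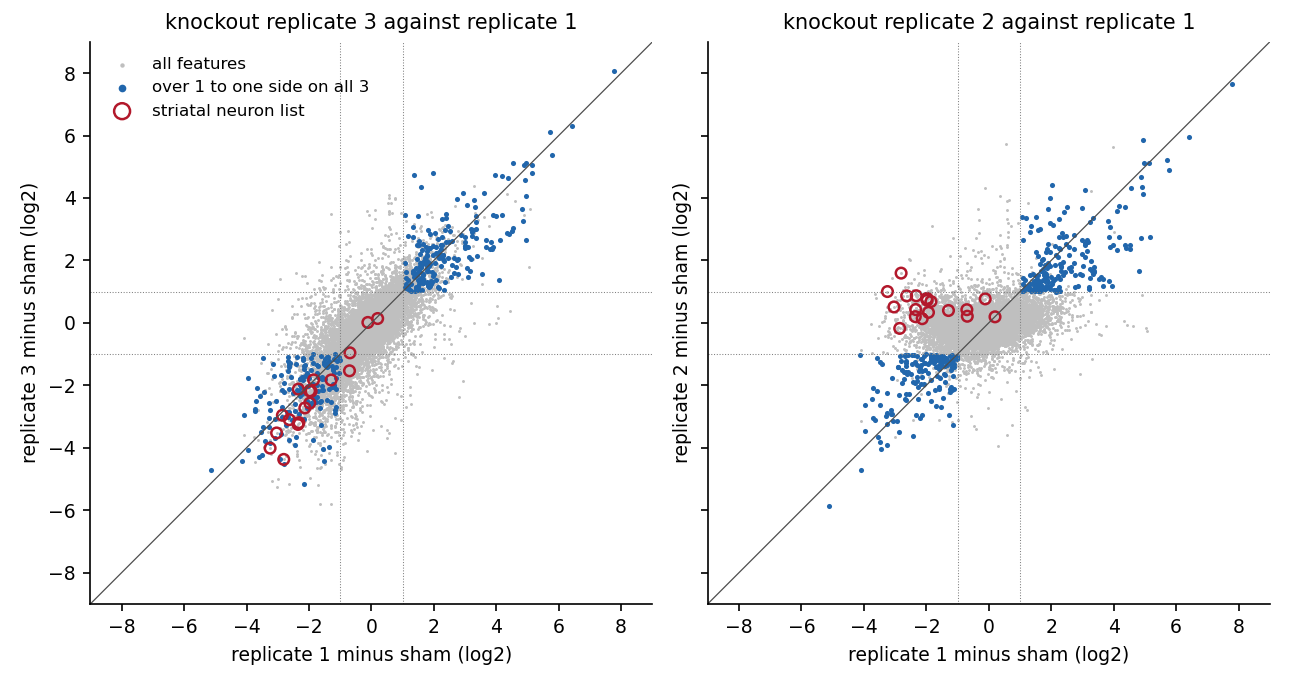
Log2 difference from the array labelled sham of knockout replicate 3 (left, y axis) and replicate 2 (right, y axis) against that of replicate 1 (x axis), for all 23187 features in grey, the 348 counted genes in blue and the 18 striatal neuron genes as red rings; dotted lines mark 1 and -1. The rings run along the diagonal on the left and lie at or above 0 on the right apart from 1, since replicate 2 stays near sham.

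Among the genes in which replicate 2 stood apart were those of neurons of the striatum, a region at the centre of the territory of the middle cerebral artery. Penk, the enkephalin precursor of striatal output neurons, read 0.87, 5.12 and 0.10 on knockout replicates 1, 2 and 3 and 4.11 on sham. Pdyn, the dynorphin precursor, read -1.53, 2.87 and -3.10 against 1.28. In both genes replicate 2 lay above sham and the other knockout arrays far below it. Of 18 striatal neuron genes, 14 were over 1 lower than sham on both replicates 1 and 3, and 0 on replicate 2. Over all 23187 features, 1684 were over 1 lower on both replicates 1 and 3, and 451 on replicate 2. The list medians against sham were -2.06, 0.47 and -2.38. Synaptic genes had medians of -1.54, 0.10 and -1.66 over 28 genes, interneuron genes -1.28, 0.10 and -1.39 over 14, and general neuron genes -1.11, 0.05 and -1.55 over 18. In these lists replicate 2 was the highest knockout array in 25 of 28, 13 of 14 and 17 of 18 genes. How often this held over all features was not counted. Cortical neuron genes did not follow, with medians of -1.45, -0.61 and -0.36 over 18 genes. Among these, replicate 2 was the highest knockout array in 5 and the lowest in 7. On replicate 2 the thalamic, midbrain and hippocampal lists had medians of -0.26, -0.27 and -0.06. Over all features the 3 medians were 0.05, -0.01 and 0.02. Wild type day 3 replicates 2 and 3 had striatal medians of -1.03 and -1.14 against the array labelled sham, while replicate 1 lay the other way, at 2.83.

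Vessel and matrix genes ran the other way. Endothelial genes had medians of 1.06, 0.26 and 1.16 above sham on replicates 1, 2 and 3, and collagens and matrix 0.93, 0.21 and 0.87. Replicate 2 was the lowest knockout array in 14 of 16 and 22 of 26 of them, with no share over all features counted beside it. Neutrophil genes had medians of 2.17, 0.68 and 1.41 and red blood cell genes 4.40, 2.40 and 2.89, so in these lists replicate 2 stayed apart from sham. Cholesterol synthesis genes differed little between the arrays, with medians of 0.24, 0.15 and 0.50, but 20 of 22 lay above sham on all 3; over all features 6624 of 23187 did.

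**Figure D4:**
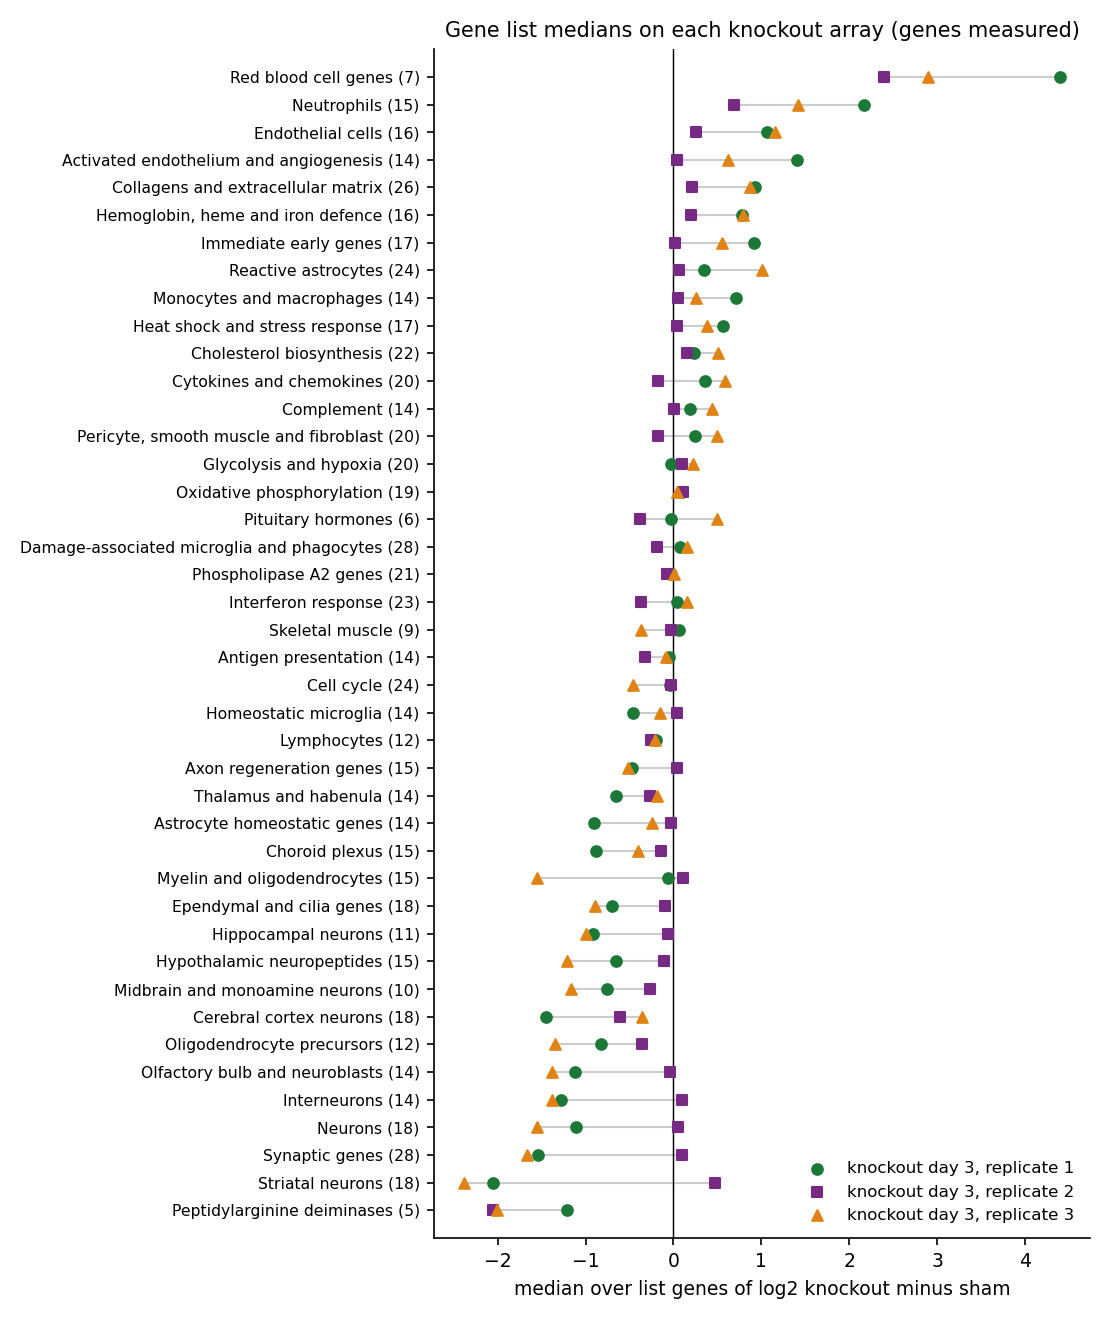
Median over the genes of each list of the log2 difference from the array labelled sham (x axis) for 42 gene lists (y axis, number of genes measured in parentheses), with 1 symbol for each knockout array. Striatal, synaptic, interneuron and general neuron lists lie near -2.06 to -1.11 on replicate 1 and at 0.05 to 0.47 on replicate 2. Cortical neurons lie at -1.45 and -0.61 on these 2 arrays, and red blood cell genes lie at 2.40 or above on all 3.

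Replicates 1 and 3 differed from each other in other groups. Myelin genes had medians of -0.06, 0.11 and -1.55, and Opalin, a myelin membrane protein, read 0.48, 0.06 and -2.60 against -0.33 on sham, low on replicate 3 alone. Lhx8 and Igsf1, a factor of forebrain cholinergic neurons and an immunoglobulin family membrane protein, read -1.73, -0.63 and -5.43 for Lhx8 against -0.76, and -0.77, 0.14 and -4.27 for Igsf1 against 0.27. Otx2, a forebrain and choroid plexus factor, was low on replicate 3 as well, at -6.60 against -2.99 and -2.91. Fyb2, an adaptor protein, was the reverse, highest on replicate 3, at -2.13 against -5.39 and -6.77. On replicate 1, Retnla and Ppbp, a macrophage product and a platelet chemokine, were higher than on the other knockout arrays: Ppbp read -2.28 against -5.03 and -5.69, with sham at -5.28. Homeostatic astrocyte genes were lower on replicate 1, with a list median of -0.90 against -0.03 and -0.25, while reactive astrocyte genes had medians of 0.35, 0.07 and 1.01. Gfap, the astrocyte filament protein, read 1.81 there and 3.99 and 4.49 on replicates 2 and 3, with sham at 4.19. What set these knockout arrays apart from each other was not tested.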

How the data were processed

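RNA of 7 brain samples was amplified from 100 ng, labelled with Cy3 and hybridised 1 sample per array. The deposited scanner files hold spot intensity from Agilent Feature Extraction 11.5.1.1, per the submitters' processing notes, with background subtracted per the file headers. The authors' deposited value table is on a linear scale, a ratio that matched that intensity over its 75th percentile to within 0.0428%, with column medians of 0.0863 to 0.0976; it was an alternative only. The intensity deposited was taken to log2 here and each array's 75th percentile subtracted. Control spots and spots with outlier flags were left out, which removed 28 of 39429 probes. A probe had to be well above background on 3 or more of the 7 arrays, and a gene is given by its brightest such probe. Names came from a RefSeq table of GRCm38.p6 by accession for 28751 probes and by symbol for 2031; others kept the file's name.

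limma 3.58.1 in R 4.3.3 (lmFit, eBayes) was fitted to the 4 arrays, two-sided, with Benjamini-Hochberg adjustment over 23187 features and a threshold of 0.05; its 2 residual degrees of freedom come from the knockout arrays, whose spread is taken to hold for sham too. An "at least" fold sets a mean against, per array, the higher of the dim probe's signal and the lowest signal well above background. Precision is limited by how few arrays there are.

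The members and the 42 gene lists (686 of 725 entries measured) were chosen with earlier results of these data known. The rule for named genes takes Pla2g2e; per direction the 14 ordinary symbols well above background on all 4 arrays whose smallest difference was largest, and the 8 counted genes with the largest "at least" fold; up to 4 counted members per list; and per knockout array the 5 genes with the largest gap to the nearer of the others. Some genes that it gives are not reported here. Other genes were named after their values were seen: further list members, Stfa1, Stfa2, Saa3, Wfdc21, Prg4, Msln, Plat, Prrx1, Tgfbr1, Smoc2, Sfrp4, Foxd1, Crabp1, Ccr7, Pcp2, Cacna1g, Rn18s and those at the threshold.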

Additional observations from a re-analysis of the deposited data

How the results depend on the processing

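The counts of 197 higher and 151 lower genes moved by over 1.5 times under these settings. With normexp they were 70 and 22, with probes well above background on all 4 arrays 98 and 70, and over 2 in place of over 1 they were 51 and 29. Without a filter on dim probes 494 were lower, without spots at the array edge 122 were higher, and without the 3 array areas, an alternative chosen after seeing the data, 94 were higher. Leaving out 1 knockout array gave 226 to 925 higher and 209 to 1684 lower. limma called 3 higher with 7 arrays, and 6 higher and 2 lower with 6, in place of 0.

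Of 546 list medians under these settings 512 moved by less than the SD between the knockout arrays and 34 moved by more; 21 of the 546 had another sign than with the settings used. With quantile normalization the moved medians were -0.29 for injury phagocytes, -0.11 for lymphocytes, -0.35 for antigen presentation, 0.050 for phospholipase A2, -0.13 for glycolysis and -0.16 for oxidative phosphorylation. With normexp they were 0.070 for lymphocytes, -0.28 for cortex, -0.22 for thalamus, -0.26 for choroid plexus, -0.16 for ependyma, 0.12 for phospholipase A2, -0.49 for deiminases and 0.035 for oxidative phosphorylation. With the percentile over well measured probes they were -0.33 for lymphocytes, -0.16 for phospholipase A2 and 0.039 for oxidative phosphorylation. With probes above background on all 4 arrays they were 0.0049 for lymphocytes, 0.026 for phospholipase A2 and -1.25 for deiminases. Lymphocytes were at -0.58 without the filter, -0.42 with the median probe, -0.45 without the edge and -0.25 without the 3 areas. Thalamus was at -0.29 with the median probe, and without the edge skeletal muscle was at 0.10 and phospholipase A2 at -0.078. Leaving out 1 array gave -0.33 to -0.24 for lymphocytes, -0.63 to -0.19 for axon regeneration, -1.06 to -0.44 for hippocampus, -0.57 to -0.39 for thalamus and -0.11 to -0.015 for phospholipase A2.

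Of 1130 single-gene differences over 79 genes, 15 turned in sign. These were Fads6, at -0.27 without the edge and without the 3 areas, and Sp8 at -1.06 and Glud1 at 0.037 without the edge. With normexp Sun3 was at 0.11, Gabrq at 0.030 and Krt35 at 0.14, and with the percentile over well measured probes Rnase2a was at -0.035. Leaving out 1 knockout array in turn gave -0.74 to 1.18 for Retnla, -0.078 to 1.63 for Ppbp, -0.75 to 0.57 for Glud1, -0.80 to 0.47 for Rnase2a, -0.31 to 0.99 for Sucnr1 and -1.49 to 0.35 for Otx2. The sign turned without replicate 1 for the first 4, without replicate 2 or 3 for Sucnr1 and without replicate 3 for Otx2. For every such move the cause was not tested, beyond the probes or arrays that a setting leaves out.

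No paired analysis was possible because the labels link no knockout sample to the sham sample. A single sham array, doubtful by its injury genes and on another slide than the knockout, sets every difference, and genes near background have bounds rather than folds.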
